A study of Mus musculus with 5 samples.

Results

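The 36 genes described here are a set of mouse cell division genes, chosen by symbol from the gene list of the count files; all 36 were found there under 1 gene identifier each, of 55450 genes in all. They were split by the phase of the cell cycle in which their products act. The 22 mitotic genes are Mki67, Top2a, Ccna2, Ccnb1, Ccnb2, Cdk1, Birc5, Cenpf, Cenpe, Cenpa, Tpx2, Bub1, Bub1b, Aurka, Aurkb, Plk1, Kif11, Kif20a, Nusap1, Ube2c, Cdc20 and Prc1. The 12 S-phase genes are Pcna, Mcm2, Mcm3, Mcm4, Mcm5, Mcm6, Mcm7, Tyms, Rrm1, Rrm2, Hells and Gins2, and the other 2 genes, Hmgb2 and Stmn1, were read in neither phase. The question was which cell types carried these transcripts in each library, with the S-phase genes read apart from the mitotic genes.

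Cells came from the cortex of C57BL/6J mice, a common inbred laboratory strain, after sham surgery or at the injury site 1, 3, 7 or 14 days after traumatic brain injury (TBI). Tissue was dissociated with papain, cleared of debris by a Percoll gradient, and the cells were captured on the 10x Chromium platform, which counts each captured RNA molecule once by its unique molecular identifier (UMI). Each of the 5 groups was 1 library, and neither the age and sex of the mice nor the number of animals in a library is given in the sources used here. No comparison between groups therefore has replicates: no test was run, every interval below covers counting error alone, and a difference between libraries cannot be told apart from a difference between single preparations.

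A dividing cell copies its DNA in S phase and separates the copies in mitosis. The MCM proteins form the ring-shaped helicase that opens DNA at replication origins, Gins2 is a subunit of the complex that activates it, Pcna is the sliding clamp of the polymerases, and Tyms, Rrm1 and Rrm2 make DNA precursors. In G2 and mitosis the kinase Cdk1 acts with cyclins A and B (Ccna2, Ccnb1, Ccnb2), Aurora and Polo kinases (Aurka, Aurkb, Plk1) build the spindle, Bub1 and Bub1b hold division until the chromosomes are attached, and Cdc20 and Ube2c then drive the destruction of the cyclins. In the adult brain most neurons and mature oligodendrocytes do not divide, whereas neural progenitors and oligodendrocyte precursors do, and microglia, the resident macrophages of the brain, can divide after injury.

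Transcription of these genes is known to be timed by 2 kinds of promoter element. Many G2 and mitotic genes carry a cell cycle homology region (CHR), often next to CCAAT boxes, and many S-phase genes carry E2F sites. Promoters from RefSeq (GRCm38.p6) were available for 29 of the 36 genes: 18 mitotic, 10 S-phase and 1 of the other 2. In the 250 bases before the transcription start, on both strands, TTTGAA or TTTAAA (CHR) was found in 13 of 18 mitotic and 2 of 10 S-phase promoters, against 28.1% of 27025 genes. The pentamer CCAAT was found in 16 of 18 and 8 of 10, against 37.5%, and CHR together with CCAAT in 12 of 18 (66.7%) and 2 of 10 (20%), against 10.1%. An E2F octamer (TTTCCCGC, TTTGGCGC, TTTCGCGC or TTTGCCGC) was found in 1 of 18 mitotic and 4 of 10 S-phase promoters, against 2.16%. TTTAAA reads the same on both strands and was counted once, and E2F matches on opposite strands can overlap. A match is a run of letters and not a bound site.

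Promoters of 4 mitotic genes and 3 S-phase genes are printed as examples. Their transcripts were highest in different libraries in microglia/macrophage-like cells, as given below. Each is the 200 bases before the start, 5′ to 3′ on the gene's strand, with CHR, CCAAT and E2F letters in capitals.
Cdk1, chr10:69352913-69353112 (- strand): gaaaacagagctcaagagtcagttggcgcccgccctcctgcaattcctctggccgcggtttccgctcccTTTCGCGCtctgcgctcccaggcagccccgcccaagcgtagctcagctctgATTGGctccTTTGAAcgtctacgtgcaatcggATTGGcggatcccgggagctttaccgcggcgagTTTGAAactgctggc
Top2a, chr11:99024190-99024389 (- strand): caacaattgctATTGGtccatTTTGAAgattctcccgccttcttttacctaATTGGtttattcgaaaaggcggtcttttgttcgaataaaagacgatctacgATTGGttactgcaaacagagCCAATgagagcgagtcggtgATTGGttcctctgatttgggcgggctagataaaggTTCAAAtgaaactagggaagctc
Ube2c, chr2:164769729-164769928 (+ strand): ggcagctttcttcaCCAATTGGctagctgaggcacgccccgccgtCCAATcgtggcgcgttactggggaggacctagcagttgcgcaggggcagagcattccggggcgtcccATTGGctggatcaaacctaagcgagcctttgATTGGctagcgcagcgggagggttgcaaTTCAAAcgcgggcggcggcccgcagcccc
Cdc20, chr4:118437344-118437543 (- strand): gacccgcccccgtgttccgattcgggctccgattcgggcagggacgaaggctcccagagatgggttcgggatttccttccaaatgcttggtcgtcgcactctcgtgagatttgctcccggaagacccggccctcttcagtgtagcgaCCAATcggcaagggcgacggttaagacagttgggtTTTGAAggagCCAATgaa
Mcm5, chr8:75109309-75109508 (+ strand): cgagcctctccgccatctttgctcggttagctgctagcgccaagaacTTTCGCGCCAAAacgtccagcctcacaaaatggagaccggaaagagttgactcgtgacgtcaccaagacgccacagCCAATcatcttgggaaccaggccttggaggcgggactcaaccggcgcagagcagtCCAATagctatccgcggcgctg
Mcm6, chr1:128359706-128359905 (- strand): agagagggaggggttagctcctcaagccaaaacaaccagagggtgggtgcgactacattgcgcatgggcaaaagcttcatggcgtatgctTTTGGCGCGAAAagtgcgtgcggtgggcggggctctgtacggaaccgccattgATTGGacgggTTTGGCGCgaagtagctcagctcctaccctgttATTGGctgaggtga
Hells, chr19:38930790-38930989 (+ strand): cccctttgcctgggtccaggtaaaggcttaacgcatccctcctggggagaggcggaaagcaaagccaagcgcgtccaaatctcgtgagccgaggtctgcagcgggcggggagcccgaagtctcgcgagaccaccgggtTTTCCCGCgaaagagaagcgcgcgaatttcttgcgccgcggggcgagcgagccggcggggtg
Cdk1 was the single mitotic gene with an E2F octamer, beside 2 CHR and 3 CCAAT matches over the 250 bases. Top2a and Ube2c held 6 CCAAT matches each, the highest number among the 29. Mcm6 held 3 E2F matches and Mcm5 held 2, of which a pair in each overlap on opposite strands, and Hells held 1. The printed genes do not stand for all genes with the same course. Mcm2, also highest at day 1, held 1 CHR match and no E2F octamer. Nusap1, Rrm2 and Tyms, highest at day 3, held neither CHR nor E2F letters.

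After quality filters and removal of called doublets, 55321 cells of 60574 barcodes remained: 10539 in sham, 11774 at day 1, 9506 at day 3, 11959 at day 7 and 11543 at day 14. Depth differed between libraries, microglia-like cells having a median of 727 UMIs in sham and of 1790, 3383, 7253 and 7962 at days 1, 3, 7 and 14. Cells were clustered without the cell division genes, and clusters were named from marker genes ("-like" below); 2 of 33 clusters stayed unnamed, and no cluster was named neuron-like although the tissue was cortex. Any pair of libraries shared between 27 and 59 barcode sequences, at most 0.483% of the smaller library. To compare cells of different depth, each cell was thinned to 500 UMIs and called mitotic-positive when it kept at least 2 UMIs of the 22 mitotic genes. Oligodendrocyte-like cells, which should not divide, gave the background of free RNA and mixed droplets: 0.159% were positive in sham (2 of 1260), 0.157% at day 1, 0.262% at day 3 and 0.0567% at day 7, and 0 of 2045 at day 14, which allows a share of up to 0.147%.

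Over all cells, 0.721% were mitotic-positive in sham (76 of 10539; 95% Clopper-Pearson interval 0.569 to 0.902%). The share was 2.37% in the day 1 library (2.10 to 2.66%) and 9.08% in the day 3 library (8.51 to 9.67%), against 1.37% (1.17 to 1.60%) and 1.93% (1.69 to 2.20%) in those of days 7 and 14. The day 3 library stood above the other 4, whose intervals ended at 2.66% or lower. The cell types behind these totals differed. Progenitor- or neuroblast-like cells made up 75.0% of the positive cells in sham and 87.1% at day 1. At day 3 microglia-like cells were the main class, with 42.8% of 863 positive cells, followed by progenitor-like cells with 31.6% and oligodendrocyte precursor-like cells with 12.5%. At day 7 the positive cells were spread over progenitor-like (28.0%), microglia-like (23.2%), astrocyte-like (22.6%) and precursor-like cells (14.0%), and at day 14 over progenitor-like (27.8%), T or NK cell-like (23.8%) and monocyte/macrophage-like cells (14.8%).

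**Figure D1:**
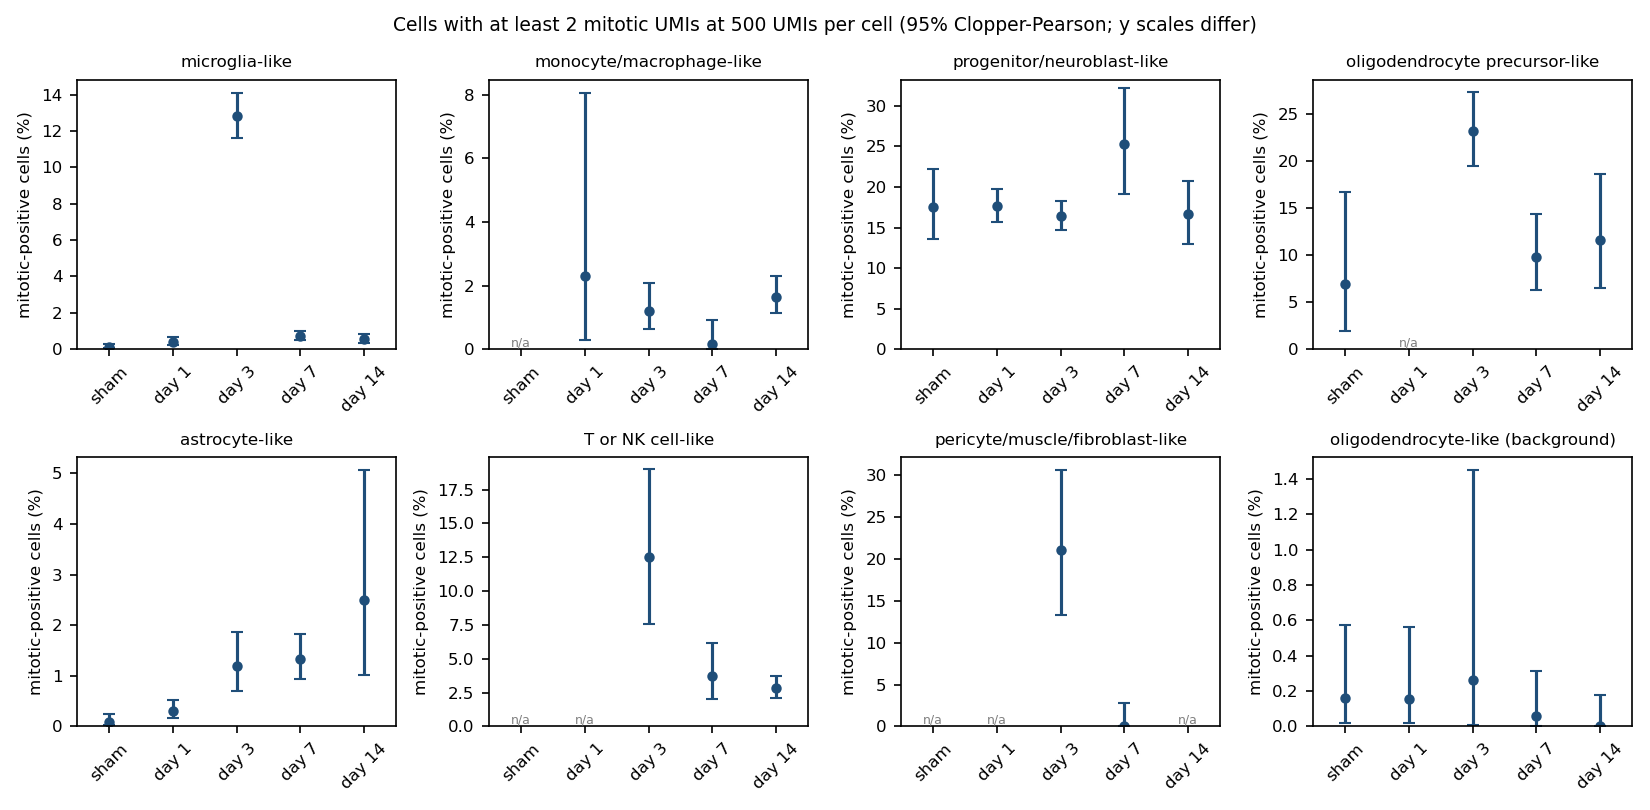
Share of mitotic-positive cells (y axis, percent, scale differs between panels) in each library (x axis) for 8 classes; points are single libraries, bars are 95% Clopper-Pearson intervals, and n/a marks classes of under 50 cells. Microglia-like and precursor-like cells are highest at day 3, progenitor-like cells lie between 16.4 and 25.3% in every library, and oligodendrocyte-like cells stay at or under 0.262%.

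Microglia-like cells held few mitotic-positive cells in every library except that of day 3. Of 4504 microglia-like cells in sham, 5 were mitotic-positive (0.111%; 0.0361 to 0.259%), inside the interval of the oligodendrocyte-like cells (0.0192 to 0.572%). The share was 0.403% at day 1 (16 of 3968), 12.8% at day 3 (369 of 2877; 11.6 to 14.1%), 0.722% at day 7 (38 of 5265) and 0.541% at day 14 (18 of 3326). Without thinning, the shares were 0.222, 2.82, 31.1, 12.4 and 7.07%, so the deep day 7 and day 14 libraries give more cells with 2 UMIs at full depth, while day 3 was highest either way. Most microglia-like cells of each library formed a cluster of their own: cluster 0 in sham (4337 cells), cluster 1 at day 1 (3616), cluster 15 at day 3 (2685), cluster 11 at day 7 (4843) and cluster 21 at day 14 (3292).

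Monocyte/macrophage-like cells, which enter the brain from the blood or line its borders, carried fewer mitotic transcripts at day 3 than microglia-like cells did. At day 3, 12 of 997 were positive (1.2%; 0.623 to 2.09%), an interval that does not meet that of microglia-like cells in the same library. The share was 2.30% at day 1 (2 of 87), 0.166% at day 7 (1 of 602) and 1.63% at day 14 (33 of 2019; 1.13 to 2.29%). At day 14 the share in microglia-like cells was lower, at 0.541% (0.321 to 0.854%). Unnamed cluster 26, in neither class, had 22 of 783 cells positive at day 14 (2.81%; 1.77 to 4.22%). It passed 7 of 18 markers of its best class, and the microglia and monocyte/macrophage lists hold 18 each. No positive share with cluster 26 counted in is given for either class. Of the day 14 monocyte/macrophage-like cells, 813 lay in cluster 25, led by the antigen presentation genes H2-Eb1, H2-Ab1, H2-Aa and Cd74, which passed 10 of its class's markers and 7 of the dendritic cell markers. In that cluster 20 cells were positive (2.46%; 1.51 to 3.77%), and in cluster 19, with 1189 cells, 12 were (1.01%; 0.523 to 1.76%), an interval that meets that of microglia-like cells. Mki67, the proliferation antigen, was at 165 CPM (its UMIs scaled to the same total for every class and library) in microglia-like and 17.0 CPM in monocyte/macrophage-like cells at day 3, and at 11.3 and 23.5 CPM at day 14. The positive cells of the joined microglia/macrophage-like class at day 3 held 37861 CPM of the microglia markers against 30369 CPM in the other cells of the class, and 1623 against 5303 CPM of the monocyte/macrophage markers. Of those 381 positive cells, 376 scored highest for the same class when each cell was read on its own; at day 7 it was 28 of 39 and at day 14 it was 36 of 51.

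In the joined microglia/macrophage-like class, the 22 mitotic genes together had 53.0 CPM in sham, 114 at day 1, 1136 at day 3, 138 at day 7 and 199 at day 14. Against sham this is 2.16-fold at day 1, 21.4-fold at day 3, 2.61-fold at day 7 and 3.76-fold at day 14. The 12 S-phase genes had another course: 212 CPM in sham, 553 at day 1, 373 at day 3, 186 at day 7 and 194 at day 14. The S-phase total was thus highest in the day 1 library (log2 ratio to sham 1.39, 95% interval 1.28 to 1.5) and the mitotic total in the day 3 library (log2 4.42, 4.22 to 4.63). The S-phase share of the 2 totals was 80.0% in sham, 82.9% at day 1, 24.7% at day 3, 57.3% at day 7 and 49.4% at day 14. In bulk totals of a class, fewer cells with a transcript and less of it per cell cannot be told apart.

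**Figure D2:**
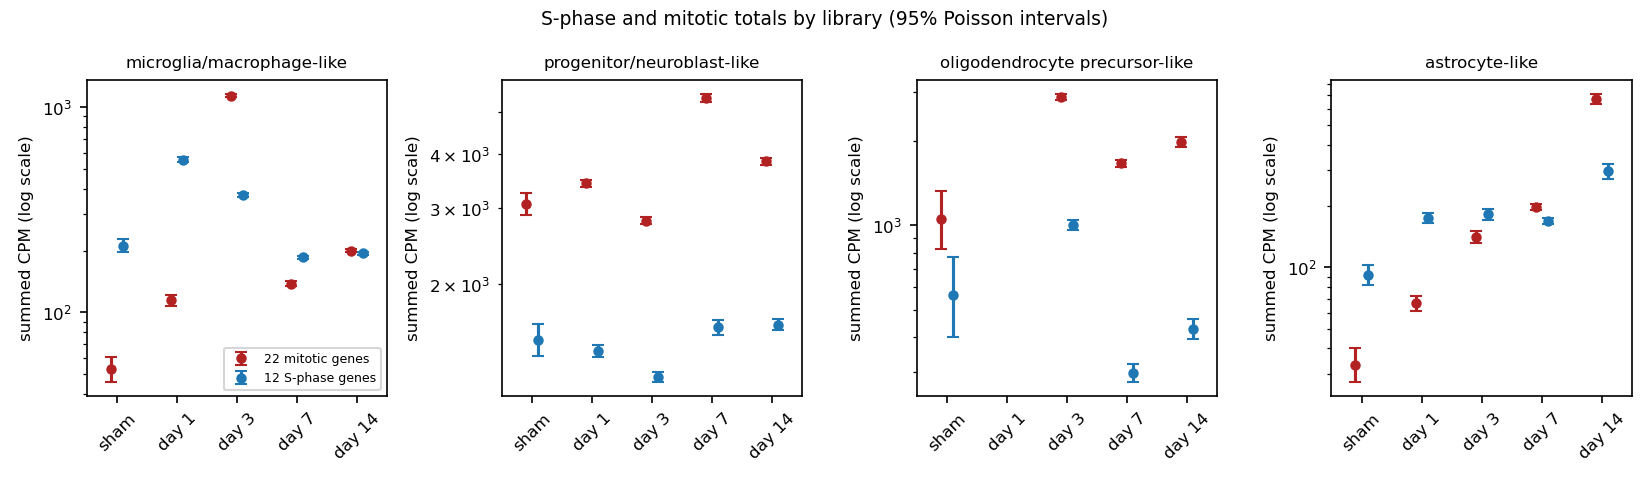
Summed CPM of the 22 mitotic genes (red) and the 12 S-phase genes (blue) on log axes whose ranges differ between panels, for each library of 4 classes; bars are 95% Poisson intervals of the UMI sums. In microglia/macrophage-like cells the S-phase total is highest at day 1 (553 CPM) and the mitotic total at day 3 (1136 CPM), while in progenitor-like cells the mitotic total is above the S-phase total in every library.

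Gene by gene, 14 of the 22 mitotic genes were at least 2-fold higher than sham in microglia/macrophage-like cells at day 1, where 12.5% of all 13913 measured genes were. All 22 were at day 3 (14.4% of all genes), 13 of the 20 measured at day 7 (10.7%) and 20 of 22 at day 14 (10.5%). The median log2 ratio of the mitotic genes was 1.17, 4.29, 1.23 and 1.77 at days 1, 3, 7 and 14, beside -0.06, -0.39, -0.34 and -0.52 for all genes. Of the 12 S-phase genes, 10 were at least 2-fold higher at day 1, 8 at day 3, 1 at day 7 and 3 at day 14, with medians of 2.0, 1.34, -0.06 and 0.48. With TMM scaling, or with the median of all genes set to 0, the S-phase counts at days 7 and 14 were 2 and 6. No mitotic or S-phase gene was 2-fold lower at any day, while 14.3, 29.2, 18.8 and 29.2% of all genes were. With only cells of at least 1000 UMIs, the mitotic count was 5 of 21 at day 1, 22 of 22 at day 3, 7 at day 7 and 11 at day 14, and no S-phase count moved by over 1.5 times. In microglia-like cells alone it was 22 at day 3 and 12 at day 14. The share of all genes is not given for either of these settings. In sham the 22 mitotic genes lay between 0.538 and 7.26 CPM, on 2 to 27 UMIs each.

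**Figure D3:**
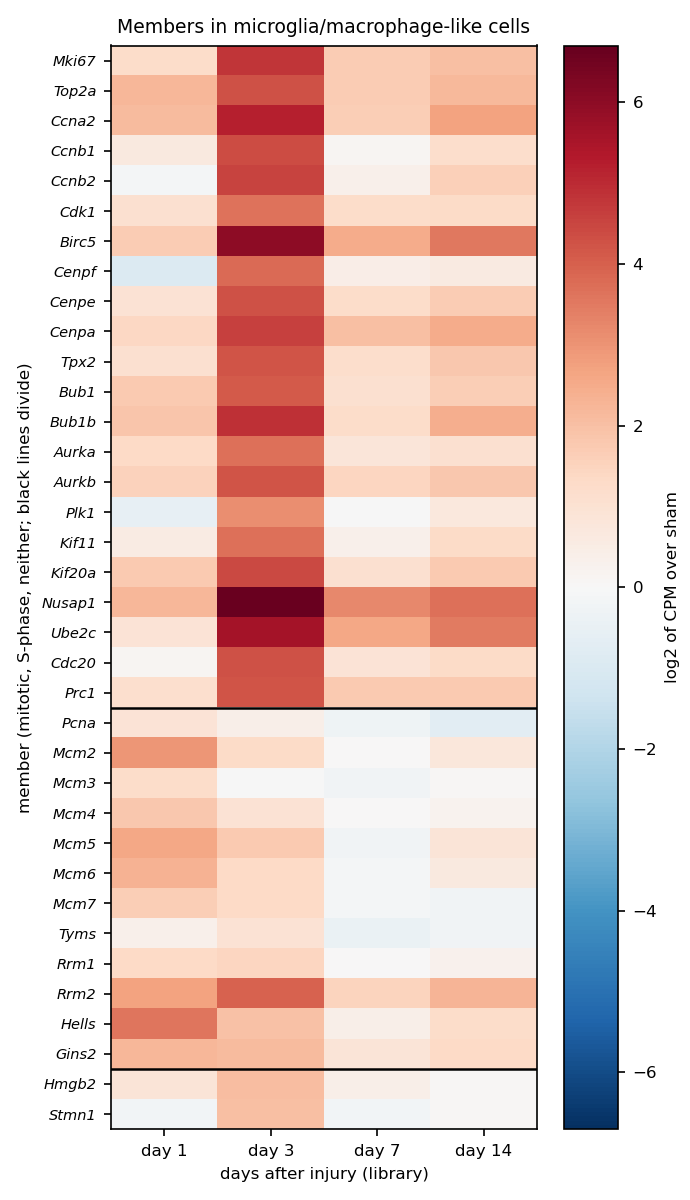
Log2 ratio of CPM to sham (colour) for each of the 36 genes (rows; mitotic, then S-phase, then Hmgb2 and Stmn1) in microglia/macrophage-like cells of each injured library (columns). The mitotic block is darkest at day 3, where its values run from 3.10 (Plk1) to 6.61 (Nusap1), while the S-phase genes have a higher median at day 1 (2.0) than at day 3 (1.34), with their 2 highest single values in Rrm2 at day 3 (3.94) and Hells at day 1 (3.57).

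Mki67 had 4.31 CPM in sham, 10.1 at day 1, 117 at day 3, 13.8 at day 7 and 17.6 at day 14. At day 3 its log2 ratio to sham was 4.76 (95% interval 4.06 to 5.57). Top2a, the topoisomerase that untangles sister chromosomes, had 4.84, 22.8, 94.9, 15.8 and 22 CPM in the same order. Both genes were lowest in sham and highest at day 3, with the other libraries between.

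Among the regulators of mitotic entry and exit, Cdk1 had 6.19, 12.8, 77.8, 14.4 and 15.3 CPM, and Ccnb1 2.15, 3.41, 44.8, 2.38 and 4.78 CPM. Cdc20, an activator of the anaphase-promoting complex, had 1.88, 2.07, 36.7, 3.60 and 4.65 CPM. For Ccnb1 the day 1 and day 7 intervals of the log2 ratio both held 0 (-0.51 to 2.01 and -0.88 to 1.39). Ube2c, the ubiquitin-conjugating enzyme of the anaphase-promoting complex, had 1.61, 3.05, 78.1, 9.70 and 17.8 CPM. Birc5 (survivin), a subunit of the chromosomal passenger complex, had 1.35, 4.39, 85.3, 7.41 and 15.6 CPM. For Ube2c and Birc5 the day 14 level was above that of day 7, and day 3 was above both.

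The ends of the mitotic range were Nusap1 and, depending on the day, Cenpf or Plk1. Nusap1, a spindle microtubule protein, had 0.538 CPM in sham (2 UMIs) and 2.56, 52.6, 5.03 and 6.86 CPM at days 1, 3, 7 and 14. Cenpf, a kinetochore protein, was lower at day 1 than in sham (3.90 against 7.26 CPM, log2 -0.90, -1.68 to -0.10) and 100.5 CPM at day 3. Plk1 had 2.15 CPM in sham, 18.5 at day 3 and 2.11 at day 7. In sham these genes rested on 2, 27 and 8 UMIs.

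In the S-phase group, Mcm5 had 4.31 CPM in sham, 26 at day 1, 14.4 at day 3, 3.68 at day 7 and 7.72 at day 14. Hells, a chromatin remodelling helicase, had 2.69 and 31.9 CPM in sham and at day 1 (log2 3.57, 2.67 to 4.65), and 10.6, 3.5 and 6.27 CPM later. Mcm2 and Mcm6 were likewise highest at day 1, at 29.0 CPM against 3.77 in sham and at 46.9 against 9.42. Pcna was the gene with the most UMIs in the group, with 114, 218, 150, 92.0 and 69.7 CPM, and had a log2 ratio to sham of -0.71 at day 14 (-0.85 to -0.56), to which TMM scaling adds 0.64, beside a median of -0.52 for all genes. Rrm2 and Tyms did not follow the MCM genes. Rrm2, the regulated subunit of ribonucleotide reductase, had 1.08, 7.07, 16.5, 3.06 and 5.25 CPM, and Tyms, thymidylate synthase, 13.5, 17.2, 26.3, 9.94 and 11.4 CPM, so both were highest at day 3. Over all 36 genes, 9 were highest at day 1 and 27 at day 3. The share of all genes highest in each library is not given, so these counts have no background.

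The 2 genes read in neither phase are also expressed outside division. Hmgb2, a chromatin protein, had 179, 323, 760, 238 and 192 CPM, and Stmn1, a tubulin-binding protein, 79.6, 71.0, 324, 69.6 and 85.0 CPM. Both were highest at day 3, at log2 2.08 (1.97 to 2.20) and 2.02 (1.85 to 2.20) above sham. In oligodendrocyte-like cells Stmn1 was at 2505, 1238, 701, 1249 and 1871 CPM while the mitotic total there was 24.3 to 74.8 CPM, so a high level of Stmn1 was found without the mitotic genes.

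Read cell by cell at 2000 UMIs, S-phase and mitotic transcripts met in different cells at different days. Of 1598 microglia/macrophage-like cells deep enough at day 1, 397 (24.8%) held at least 2 S-phase UMIs without mitotic ones, 55 held both and 10 held mitotic ones alone. Of 3628 cells at day 3, 262 (7.22%) were S-phase alone, 242 held both and 503 (13.9%) were mitotic alone. Too shallow for this reading were 2457 of 4055 cells at day 1 and 246 of 3874 at day 3. The day 1 values therefore describe only the deeper cells of that library. Among mitotic cells, 84.6% also held S-phase transcripts at day 1 (73.5 to 92.4%), against 25.9% among non-mitotic cells, and 32.5% did at day 3 (29.1 to 36%), against 9.09%. At day 7 the shares were 23.9 and 5.83%, and at day 14 they were 32.1 and 4.72%. In progenitor-like cells, 69.2 to 75.3% of mitotic cells held S-phase transcripts at the 4 injured time points. Among their non-mitotic cells the shares were 41.0, 33.0, 30.6 and 21.5% at days 1, 3, 7 and 14. In sham, 59 microglia/macrophage-like cells reached 2000 UMIs, too few to set beside the others.

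How far each gene was confined to cells with mitotic transcripts was measured by its share of UMIs in cells that were mitotic-positive by the other mitotic genes. The gene itself was left out of the call. Cells in S phase without mitotic UMIs fall outside the called cells, which by itself lowers the shares of S-phase genes. The shares therefore cannot show how far S-phase genes are confined to dividing cells. In microglia/macrophage-like cells at day 3 such cells held a median of 12.5% of all UMIs. They held between 52.7% (Cenpa) and 74.5% (Plk1) of the UMIs of the 22 mitotic genes, with a median of 64.9%. Of the S-phase genes they held a median of 22%, from 11.9% for Mcm4 to 51.2% for Rrm2, and Pcna was at 22.5%. Of Hmgb2 they held 40.4% and of Stmn1 50.9%. The 2 groups of genes did not overlap at day 3, but did at the other days: the lowest mitotic value was 7.61% at day 1, 18.0% at day 7 and 28.4% at day 14, and the highest S-phase value 13.8, 35.1 and 47.8%. In precursor-like cells at day 3 they overlapped too, at 57.6 and 59.1%. At day 1 the medians were 17.2% for 17 mitotic genes with enough UMIs and 3.99% for S-phase genes, where the positive cells held 0.728% of all UMIs. Positive cells at day 3 were also deeper than the rest, with a median of 5260 against 3580 UMIs per cell, and the part of depth in these shares was not tested.

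**Figure D4:**
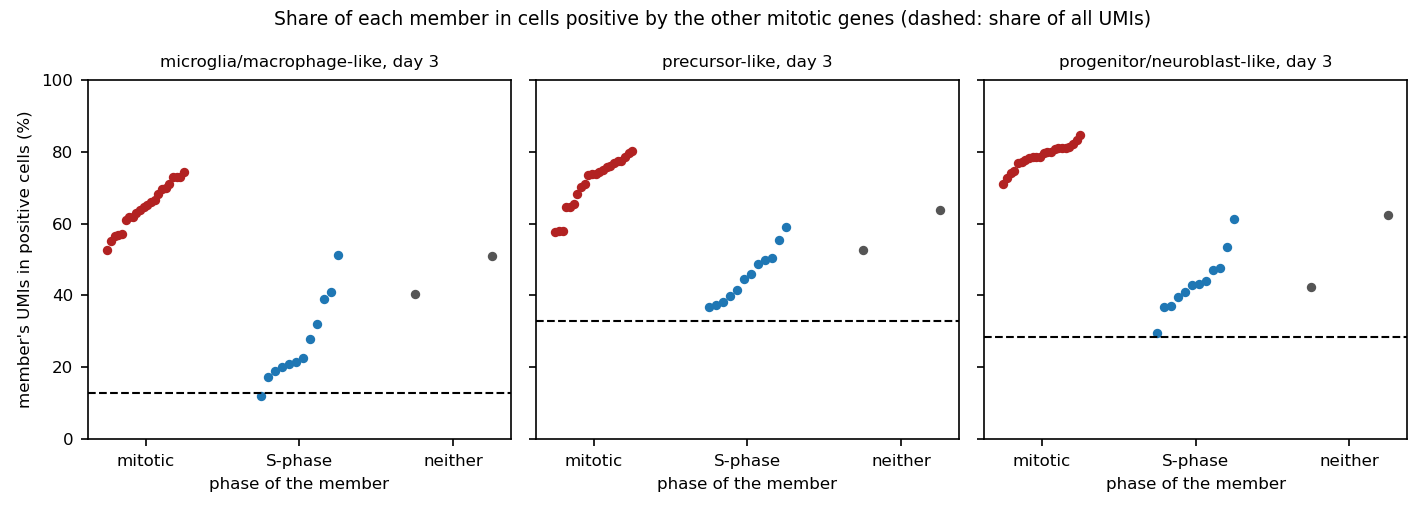
Share of each gene's UMIs (y axis, percent) that lay in cells positive by the other mitotic genes, for 3 classes at day 3; points are genes, ordered by value within mitotic (red), S-phase (blue) and neither (grey), and the dashed line is the median share of all UMIs held by those cells. In microglia/macrophage-like cells the mitotic genes lie between 52.7 and 74.5%, and the S-phase genes between 11.9 and 51.2%. Cells in S phase without mitotic UMIs lie outside the called cells.

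Other genes of the pathway were read from 6 lists, of which the licensing and replication fork list follows the S-phase genes and the kinetochore and spindle lists follow the mitotic genes. In microglia/macrophage-like cells 22 of 32 licensing and fork genes were at least 2-fold higher than sham at day 1, and 21, 3 and 10 at days 3, 7 and 14. Kinetochore and checkpoint genes numbered 11 of the 20 measured at day 1, 19 of 21 at day 3, 7 of 17 at day 7 and 10 of 19 at day 14. Spindle, cytokinesis and condensin genes numbered 11 of 29, 31 of 37, 8 of 26 and 13 of 30. The retinoblastoma, E2F and DREAM regulators numbered 5 of 18, 7 of 19, 2 of 17 and 3 of 17, with 4 and 5 lower at days 7 and 14. Of all genes, 12.5, 14.4, 10.7 and 10.5% were 2-fold higher at days 1, 3, 7 and 14, and 18.8 and 29.2% were lower at days 7 and 14, so the counts of these regulators at days 7 and 14 lie near the background. Pclaf, a Pcna-binding protein, had 3.5 CPM in sham and 50.5 at day 3, Cdca3 1.35 and 51.6, and Cks2, a Cdk1 subunit, 29.3 and 109.

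The G1 cyclins and kinases and the inhibitors of cyclin-dependent kinases, which act before S phase, had fewer members than the lists above. Of 9 G1 genes, 5 were at least 2-fold higher at day 1, 4 at day 3, and 2 of 8 measured at days 7 and 14. Beside these, 12.5, 14.4, 10.7 and 10.5% of all genes were 2-fold higher at days 1, 3, 7 and 14. Ccnd2, cyclin D2, had 5.92 CPM in sham and 65.2 at day 1 (log2 3.46, 2.85 to 4.15), and its partner kinase Cdk6 46.0 and 160. Of 7 inhibitors, 2 were higher and 3 lower at day 1, and 4 were higher and 2 lower at day 3. Among all genes, 14.3 and 29.2% were 2-fold lower at days 1 and 3. The number of lower inhibitors at day 3 thus lies near the background. Cdkn1a (p21) had 112 CPM in sham, 352 at day 1 and 264 at day 3, while Cdkn1b (p27) had 64.8 CPM in sham and 31.6 at day 1. At day 3 the inhibitors summed to 573 CPM in the mitotic-positive cells and 358 CPM in the other cells of the class.

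Neural progenitor- or neuroblast-like cells, which make new neurons, had many mitotic-positive cells in every library, sham included. The positive share was 17.6% in sham (57 of 324; 13.6 to 22.2%), 17.6% at day 1 (243 of 1377; 15.7 to 19.8%), 16.4% at day 3 (273 of 1665; 14.7 to 18.3%), 25.3% at day 7 (46 of 182; 19.1 to 32.2%) and 16.6% at day 14 (62 of 373; 13 to 20.8%). With only cells of at least 1000 UMIs the sham share was 31.5%, above the day 7 share of 25.9%. The mitotic total was 3066, 3418, 2799, 5384 and 3849 CPM and the S-phase total 1482, 1399, 1216, 1584 and 1609 CPM. In sham and at days 1, 7 and 14 both totals were above those of every other class of at least 50 cells. Of the 36 genes, 34 had their highest CPM in this class in sham, and all 36 at days 1, 7 and 14, among classes with at least 50 cells. How many of all genes were highest in this class is not given. None of the 22 mitotic genes was 2-fold higher than sham at days 1 and 3 (7.79 and 9.1% of all genes were), 8 were at day 7 (12.3%) and 1 was at day 14 (9.49%).

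Within the progenitor-like class the day 7 library differed in 1 cluster. In cluster 8, 28 of 74 cells were positive at day 7 (37.8%; 26.8 to 49.9%), against 3.90 to 5.68% in sham and at days 1 and 3. Without that cluster the day 7 share was 16.7%. In cluster 9, 36% of cells were positive in sham, 37.8% at day 1 and 30.2% at day 3. Mki67 in the whole class was at 188, 278, 217, 560 and 287.5 CPM, and Top2a at 584, 605, 459, 909 and 553 CPM. The S-phase gene with the largest positive ratio at each day was Gins2, at 29.6 CPM in sham and 59.6, 39.0, 49.5 and 55.5 later, and Ccnb2 had the lowest ratio of the mitotic genes at day 3 (53.8 to 22.8 CPM, log2 -1.24, -1.94 to -0.47).

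Oligodendrocyte precursor-like cells, which formed 1 cluster over all libraries, were highest at day 3. The positive share was 6.90% in sham (4 of 58; 1.91 to 16.7%), 23.2% at day 3 (108 of 465; 19.5 to 27.3%), 9.79% at day 7 (23 of 235; 6.31 to 14.3%) and 11.6% at day 14 (14 of 121; 6.47 to 18.6%). At day 1, 0 of 23 cells were positive, which allows a share of up to 13%. Their mitotic total was 1053 CPM in sham and 2872, 1668 and 1988 at days 3, 7 and 14. Their S-phase total was 563, 1000, 297 and 427 CPM, so the S-phase share was 34.9% in sham (26 to 44.6%), 25.8% at day 3, 15.1% at day 7 and 17.7% at day 14. Mki67 stayed near its day 3 level in this class (252, 245 and 211 CPM at days 3, 7 and 14), as did Top2a (280, 225 and 276 CPM). Other mitotic genes did not, among them Cdk1 (140, 52.0 and 59.7 CPM) and Birc5 (212, 81.7 and 74.8 CPM). The S-phase genes Mcm6 (93.6, 18.9 and 35.5 CPM) and Rrm2 (148, 23.9 and 37.8 CPM) did not either. The mitotic genes thus had no single course after day 3 in this class. The sham values rest on 58 cells and no count of genes against sham is given.

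Before day 3, T or NK cell-like cells numbered under 50, with 4 of 16 positive in sham and 1 of 32 at day 1. They had 12.5% positive at day 3 (18 of 144; 7.58 to 19.0%), 3.71% at day 7 (14 of 377; 2.05 to 6.15%) and 2.84% at day 14 (53 of 1869; 2.13 to 3.69%). Their mitotic total was 2145, 577 and 600 CPM, and 35 of the 36 genes were highest at day 3 among these 3 libraries. The share of all genes highest at day 3 in this class is not given beside that count. Hmgb2 was at 3351 CPM at day 3 and 806 and 818 CPM later. Of the 53 positive cells at day 14, 52 scored highest for T or NK cell markers on their own.

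Pericyte, smooth muscle or fibroblast-like cells, the wall and scaffold cells of vessels and membranes, stood out at day 3, where 20 of 95 were positive (21.1%; 13.4 to 30.6%) and the mitotic total was 2746 CPM. At day 7, 0 of 132 were positive (a share of up to 2.27% is allowed), and the mitotic total was 45.8 CPM. The other libraries held 6 to 27 such cells. At day 3 this class had the highest CPM of 11 of the 36 genes, Ccnb1 (129 CPM), Cdk1 (162 CPM) and Plk1 (70.6 CPM) among them. The other genes were highest in progenitor-like (10), precursor-like (8) and T or NK cell-like cells (7), and none in microglia-like cells, although these held the most positive cells. These counts too have no share of all genes beside them.

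Among the remaining classes, neutrophil-like cells were positive in 6 of 396 at day 3 (1.52%, 0.558 to 3.27%) and 0 of 148 at day 1 (up to 2.03%). At day 7 it was 0 of 96, and at day 14 it was 2 of 83 (2.41%, 0.293 to 8.43%). Dendritic cell-like cells were positive in 2 of 57 at day 7 (3.51%, 0.428 to 12.1%) and 1 of 206 at day 14. B or plasma cell-like cells at day 14 were positive in 4 of 126 (3.17%; 0.872 to 7.93%). Endothelial-like cells had 0 of 81 in sham (up to 3.70%), 0 of 71 at day 1 (up to 4.23%), and 1 positive cell each at days 3, 7 and 14, of 72, 391 and 65. These intervals meet those of the oligodendrocyte-like cells of the same library, with exceptions. Those of B or plasma cell-like and neutrophil-like cells at day 14 and of dendritic cell-like cells at day 7 lie above.

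Astrocyte-like cells had a low positive share that was larger in each later library: 0.0939% in sham (4 of 4258), 0.310% at day 1 (14 of 4521), 1.19% at day 3 (18 of 1514; 0.706 to 1.87%), 1.33% at day 7 (37 of 2790; 0.935 to 1.82%) and 2.49% at day 14 (7 of 281; 1.01 to 5.07%). The sham and day 1 intervals met those of oligodendrocyte-like cells, and so did that of day 3. Many of the positive cells did not score as astrocytes: 11 of 37 did at day 7 and 2 of 7 at day 14, against 12 of 14 at day 1 and 13 of 18 at day 3. At day 7 the positive cells held 8847 CPM of astrocyte markers, against 39254 CPM in the other cells of the class, and 810 against 268 CPM of progenitor or neuroblast markers. With only cells whose own markers gave the same class, the share was 0.623% at day 7 and 0.935% at day 14. It was 0.652% at day 7 without cluster 10, a cluster of low depth, 0.313% with called doublets kept, and 0.0668% when the cell division genes were kept in the clustering. With each cell classed by its own marker score, day 3 was highest at 1.99%, so the order of the libraries depended on how the class was drawn. Unnamed cluster 31, in no class here, had 33 of 671 cells positive at day 3 (4.92%). It passed 10 of 17 markers of its best class, and the astrocyte and progenitor lists hold 17 each. No order of the libraries with cluster 31 counted in is given. Most astrocyte-like cells lay in clusters 2 and 3 in sham, 29 and 3 at day 1, 22 at day 3, and 4 and 10 at day 7.

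With that limit, the mitotic total in astrocyte-like cells was 33.3, 66.6, 141, 198 and 670 CPM, and the S-phase total 92.0, 175, 183, 169 and 298 CPM. Few cells carried the later totals. Cells positive by the other mitotic genes, 1.15% of the class at day 7, held a median of 62.6% of the UMIs of a mitotic gene, and at day 14 such cells, 2.14% of 281, held 71.4%. At least 2-fold higher than sham were 8 of 17 measured mitotic genes at day 1 (14.7% of all genes), 17 of 21 at day 3 (11.3%), 19 of 21 at day 7 (10.8%) and 22 of 22 at day 14 (23.3%). Of the S-phase genes it was 4 of 11, 7 of 12, 5 of 12 and 11 of 12. Mki67 had 0.917, 2.53, 7.29, 15 and 29.1 CPM and Ube2c 1.22, 2.03, 8.38, 15.3 and 51.1 CPM, with sham resting on 3 and 4 UMIs. Of the other lists, Cdkn1a was at 17.4 CPM in sham and 454 at day 1, and Ccnd1, cyclin D1, at 14.7 CPM in sham and 91.6, 136 and 219 at days 1, 3 and 14. Cit, citron kinase, which acts in cytokinesis, was lower than sham in each injured library (124 against 31.4, 18.8, 29.5 and 38.7 CPM), and it is also expressed in neural cells that do not divide.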

How the data were processed

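The authors deposited 1 table of UMI counts per library, made with Cell Ranger 4.0.0 per the file headers; builds GRCm38 and mm10 and the tools Seurat 3.2.0 and STAR 2.5.37 come per the submitters' processing notes. Median depth per barcode was 773, 1756, 3256, 6581 and 8558 UMIs from sham to day 14, and low counts in sham set the precision of ratios to it.

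From the deposited counts, a barcode was kept when it had 500 or more UMIs and 200 or more genes and its mitochondrial UMIs were at most 20%. Doublets were called per library with Scrublet on all barcodes at its automatic threshold and removed (8.52, 7.35, 3.75, 3.16 and 3.31% of barcodes). Clustering used scanpy 1.11.5 (2000 variable genes, 30 principal components, 15 neighbours, Leiden resolution 1, no batch correction), after 25 cell division genes or genes correlated above 0.2 with the mitotic sum were left out of the variable genes. A named cluster had at least 3 markers of a class, from 248 markers of 17 classes. Each had to be found in at least 10% of its cells and at least 2-fold above the other cells. The 2 unnamed clusters, 26 and 31, also passed 7 of 18 and 10 of 17 markers of a class. This minimum alone therefore does not account for their lack of a name. CPM are sums of UMIs over a class divided by all UMIs of the class, so levels do not depend on gene length. A gene was measured where the mean CPM of the 2 libraries was at least 1, and counts of genes against sham are given only where the sham class held at least 300000 UMIs. Intervals at 95% are Clopper-Pearson for shares, exact Poisson for sums and conditional binomial for ratios; with a count of 0 the limit is 3 counts. UMIs are not independent of the cell that holds them, so intervals cover counting error only. Thinning and the ratio intervals were tested on simulated data.

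The members, the marker lists and the 6 other pathway lists (125 genes) were chosen with earlier results of these data known. Values in every library are given for 12 genes and for the gene of each phase with the highest and lowest ratio to sham; of the other lists, up to 4 genes per class of at least 50 CPM with the largest ratios of at least 2-fold could be named, and some of them are. Mcm2, Mcm6 and Cdc20, and the genes named by class at day 3, were chosen after their values were seen, as were the 2000-UMI reading, the 300000-UMI minimum, the alternative without cluster 8 and 3 more noted with the alternatives. TMM factors came from edgeR 4.0.16.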

Additional observations from a re-analysis of the deposited data

Results flagged for a closer look

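The S-phase total of astrocyte-like cells differed from sham in the opposite direction to that of microglia/macrophage-like cells at 2 days; the difference was not tested. At day 7 the log2 ratio to sham was 0.874 in astrocyte-like cells (92.0 to 169 CPM) and -0.19 in microglia/macrophage-like cells (212 to 186 CPM). At day 14 it was 1.69 (92.0 to 298 CPM) against -0.12 (212 to 194 CPM). TMM scaling adds 0.40 at day 7 and 0.64 at day 14 to log2 ratios in microglia/macrophage-like cells. Both of their S-phase ratios then turn positive. No TMM value is given for astrocyte-like cells, so the directions under that scaling cannot be compared. The marker values of the positive astrocyte-like cells given above bear on the ratios of both days, and their part was not tested.

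Oligodendrocyte-like cells at day 14 differed from sham in the opposite direction to microglia/macrophage-like cells in both phases, which was not tested. Their mitotic total had a log2 ratio of -0.585 (36.4 to 24.3 CPM) and their S-phase total one of 0.377 (156 to 202 CPM), against 1.91 and -0.12 in microglia/macrophage-like cells, of which the S-phase value turns positive under TMM scaling. No TMM value is given for oligodendrocyte-like cells. Progenitor-like cells at day 3 had log2 ratios of -0.131 (mitotic) and -0.285 (S-phase), against 4.42 and 0.82 in microglia/macrophage-like cells, and this too was not tested.

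Barcodes called doublets, used above only where they are said to be kept, also held mitotic-positive cells. Their share was 3.42% at day 1 (32 of 935) and 13.5% at day 3 (50 of 371; 10.2 to 17.4%), against 0.609% of 986 in sham (0.224 to 1.32%). At day 7 it was 0.446% (2 of 448), below sham, and at day 14 it was 1.98% (8 of 404; 0.859 to 3.86%), an interval that meets that of sham.

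The 2 unnamed clusters held mitotic-positive cells too. Cluster 26 passed 7 of 18 and cluster 31 passed 10 of 17 markers of their best class, and their cells are in no class share above. Cluster 26, led by Spp1, Cst7, Cxcl13 and Itgax, had 22 of 783 cells positive at day 14 (2.81%; 1.77 to 4.22%). Cluster 31, led by Tagln, Igfbp2, Tgm1, Lcn2 and Timp1, had 33 of 671 positive at day 3 (4.92%; 3.41 to 6.84%). In both the mitotic share exceeded that of the oligodendrocyte-like cells of the same library, at 0 of 2045 and 0.262%.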

How the results depend on the processing

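Each result was recomputed under up to 21 settings. Of 546 recomputed values, 382 stayed close to the reported one (shares within its interval, counts within 1.5 times) and 164 moved, under 19 settings; the mean over cells and the absence of a minimum CPM moved none. Shares and counts carry no sign, so their order over libraries was compared instead. Among libraries with at least 50 cells of the class, the mitotic-positive share was highest at day 3 in microglia/macrophages, T or NK cells and precursors under every setting run for it. In progenitors it was highest at day 7, except with cells of at least 1000 UMIs, thinned to 1000 UMIs and without cluster 8, where sham was highest. In astrocytes it was highest at day 14, except with at least 1 mitotic UMI (day 7) and with the class by each cell's marker score (day 3). The 22 mitotic genes 2-fold higher at day 3 became 18 with a mean of at least 10 CPM, which leaves out genes under it, and stayed 22 elsewhere. No paired analysis was possible because each group is 1 library, and for the same reason no replicate could be left out. Precursors of sham numbered under 50 cells with a minimum of 1000 UMIs or thinning to 1000 and gave no value there. Depth limits sham most: its microglia/macrophages had a median of 728 UMIs per cell against 9893 at day 14, and 1 UMI there was worth 0.269 CPM against 0.0165 CPM. The cause of each moved value was not tested. Classes are named in short here.

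The mitotic-positive share depended on the number of UMIs asked for. With at least 1 mitotic UMI it was 1.5% (sham), 3.82% (day 1), 18.7% (day 3), 4.14% (day 7) and 3.72% (day 14) in microglia/macrophages, 26.9, 25.3, 27.0, 36.8 and 24.1% in progenitors in the same order, 1.15, 2.46, 5.42 and 5.59% in astrocytes from sham to day 7, and, at days 3, 7 and 14, 35.5, 15.3 and 19.8% in precursors and 27.1, 11.9 and 9.36% in T or NK cells. With at least 3 it was 0.173, 6.25, 0.324 and 0.561% in microglia/macrophages at days 1, 3, 7 and 14, 12.3, 13.6, 12.2 and 12.1% in progenitors in sham and at days 1, 3 and 14, 0.133, 0.462 and 0.896% in astrocytes at days 1, 3 and 7, 16.3% in precursors at day 3, and 6.94 and 1.61% in T or NK cells at days 3 and 14. Thinned to 1000 UMIs it was 0.617, 1.25, 15.3, 1.10 and 1.46% in microglia/macrophages, 42.5, 25, 26.2 and 21.6% in progenitors (sham, days 1, 3 and 14), 0.637, 0.720 and 1.92% in astrocytes (sham, days 1 and 7), 34.5 and 16.3% in precursors (days 3 and 7) and 22.3% in T or NK cells (day 3).

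With cells of at least 1000 UMIs it was 0.371% in sham microglia/macrophages, 31.5, 20.7 and 18.4% in progenitors (sham, days 1 and 3) and 0.482, 0.138 and 0.665% in astrocytes (sham, days 1 and 3), the S-phase share was 69.1 and 47.2% in microglia/macrophages (sham, day 14) and 67.9 and 59.0% in astrocytes (sham, day 3), and 5, 7 and 11 mitotic genes were 2-fold higher at days 1, 7 and 14. With at most 10% mitochondrial UMIs the astrocyte share was 2.26% at day 3, and their S-phase share 48.8% at day 3 and 36.6% at day 7. With called doublets kept the astrocyte share was 0.313% at day 7, and the S-phase share 48.8, 56.6 and 26.3% in astrocytes (days 3, 7 and 14), 47.7% in microglia/macrophages (day 14), 30.8 and 30.7% in progenitors (days 1 and 14) and 25.5% in precursors (sham).

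At Leiden resolution 2 the astrocyte share was 0.690% at day 3, and the day 14 S-phase share 27.6% in astrocytes and 47.5% in microglia/macrophages. With the cell division genes kept in the clustering the share was 0.594 and 0.0668% in astrocytes (days 3 and 7) and 1.27% in microglia/macrophages (day 14), and the S-phase share 74.5, 62.4, 75.8 and 44.1% in astrocytes (days 1, 3, 7 and 14), 46.4% in microglia/macrophages (day 14), 28.7% in progenitors (day 14) and 16.8% in precursors (day 7). With each cell's class taken from its own marker score the astrocyte share was 1.99, 0.616 and 0.913% at days 3, 7 and 14, and the S-phase share 49.8, 50.9 and 58.2% in astrocytes at those days, 23.9 and 46.6% in microglia/macrophages (days 3 and 14), 41.0% in T or NK cells (day 14), 23.8% in progenitors and 16.3% in precursors (day 7).

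Without Pcna the S-phase share was 64.8, 74.6, 16.4, 40.3 and 38.5% in microglia/macrophages, 63.3, 55.1, 43.7, 35.6 and 22.4% in astrocytes and 27.7, 23.7, 24.4, 19.1 and 25.4% in progenitors, each from sham to day 14, and at days 3, 7 and 14 it was 21.6, 11.7 and 13.6% in precursors and 24.7, 40.0 and 37.8% in T or NK cells. With the Mcm genes, Pcna, Tyms and Rrm2 alone it was 80.7, 21.8, 54.3 and 45.3% in microglia/macrophages and 69.6, 51.3, 39.9 and 26.3% in astrocytes at days 1, 3, 7 and 14, 28.2, 24.5, 26.4, 18.9 and 25.4% in progenitors, and, at days 3, 7 and 14, 22.5, 12.1 and 14.5% in precursors and 27.5, 43.0 and 38.8% in T or NK cells.

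Of the counts of 2-fold higher genes, a mean of at least 10 CPM left 1, 3 and 4 mitotic genes at days 1, 7 and 14, and 4, 0 and 0 S-phase genes at days 3, 7 and 14. TMM scaling, which shifts log2 ratios by 0.10, 0.39, 0.40 and 0.64 at days 1, 3, 7 and 14, gave 2 and 6 S-phase genes at days 7 and 14, as did setting the median of all genes to 0. In microglia alone the share was 12.8% at day 3 and 0.541% at day 14, with 12 mitotic genes and 1 S-phase gene 2-fold higher at day 14.

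The following 4 settings were chosen after seeing the data. Without astrocyte cluster 10 the day 7 share was 0.652% and the S-phase share 58.8 and 51.1% at days 3 and 7. Without progenitor cluster 8 the day 7 share was 16.7% and the S-phase share 36.1 and 28.0% at days 7 and 14. With unnamed cluster 26 counted in, the day 14 S-phase share of microglia/macrophages was 47.1%. With only cells whose cluster and marker score gave the same class the astrocyte share was 0.623 and 0.935% and their S-phase share 50.6 and 52.9% at days 7 and 14, and the S-phase share of microglia/macrophages at day 3 was 24.0%.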

Other observations

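Several members of the wider pathway were abundant where the mitotic genes were not. In oligodendrocyte-like cells Cdkn1a, the p21 inhibitor, was at 13.8 CPM in sham, 181 at day 1 and 1001 at day 3, the day on which 1 of 382 cells was mitotic-positive. Anln, the actin-binding protein anillin, which acts in cytokinesis and is also expressed in myelinating cells, was at 415 CPM in sham and 1004 CPM at day 3 in the same class. Hjurp, a chaperone of the centromeric histone Cenpa, was lower than sham in microglia/macrophage-like cells at day 7 and day 14 (67.5 CPM against 31.8 and 21.9 CPM) and in astrocyte-like cells at day 1 and day 3 (74.9 CPM against 24.3 and 25.1 CPM), while Cenpa itself was at 4.31 CPM in sham and 17.6 and 24.4 CPM at days 7 and 14 in microglia/macrophage-like cells.

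In astrocyte-like cells Ndc80, a kinetochore gene, was at 0.917 CPM in sham and 94.5 CPM at day 3, and Pbk, a mitotic kinase, at 0.306 CPM in sham and 64.6 CPM at day 14; their sham values rest on 3 UMIs and 1 UMI. In progenitor-like cells Kif23, a motor of the cell division midzone, was at 29.6 CPM in sham and 78.5, 98.4, 139 and 81.9 CPM in the injured libraries, and E2f1 at 75.3 CPM in sham and 27.0, 36.6 and 31.5 CPM at days 1, 3 and 14.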
